A study of Mus musculus with 4 samples.

Results

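The genes described here encode the aminoacyl-tRNA synthetases, the enzymes that load amino acids onto transfer RNAs. They were taken by symbol, as the genes whose names have the form of an amino acid letter followed by ars with or without a final digit, plus Farsa, Farsb and Eprs. This gave 37 of the 15835 genes in the count table. By name, 20 of them encode the cytosolic enzymes and 17, whose names end in 2, the mitochondrial ones. Gars and Kars are counted as cytosolic by this rule, although each makes the enzyme of both compartments. RNA had been measured with CEL-seq2, a method that barcodes each sample and counts the 3' ends of polyadenylated transcripts, in group 2 innate lymphoid cells (ILC2) isolated from pancreas (islets of Langerhans) of C57BL/6j animals. ILC2 are tissue-resident lymphocytes that secrete type 2 cytokines. The fed group and the fasted group each held 4 libraries, numbered 1, 3, 4 and 5 in both, and fasting was the labelled difference between them. The labels give no length of the fast, no age or sex and no number of mice per library. Since nothing ties libraries to separate animals, the p-values reflect library-to-library spread, part of which may be technical.

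Each synthetase recognises an amino acid and the matching transfer RNA, activates the amino acid with ATP and joins them. Cells keep separate enzymes for protein synthesis in the cytosol and in mitochondria, most of them encoded by different nuclear genes. Several cytosolic synthetases sit together with the scaffold proteins Aimp1, Aimp2 and Eef1e1 in the multi-synthetase complex. When amino acids run short, uncharged transfer RNAs activate the kinase Gcn2 (gene Eif2ak4), which raises translation of the transcription factor ATF4, and several cytosolic synthetase genes are known ATF4 targets.

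Library totals ran from 1797504 to 25252366 counts in the fed group and from 2041697 to 9366807 in the fasted group, and between 1671 and 10750 counts per library fell on the synthetase genes. Markers of acinar cells, the exocrine cells around the islets, took 42.8%, 49.1%, 74.2% and 66.4% of the counts of the fed group, libraries 1, 3, 4 and 5 in that order. In the fasted group they took 3.06%, 3.41%, 69.5% and 71.2%, so fasted libraries 1 and 3 stood apart from the other 6. Of 23 acinar markers in the table, 22 had counts in every library. Of 14 ILC2 markers, among them Gata3 and Il1rl1, 13 had counts in every library. The other, Rora, was at 2.23 in fed library 1 and at or below 0.128 elsewhere, in counts per 1000000 of the library total. On that scale the 14 summed to 1144 to 4105 in the fed and 1443 to 6111 in the fasted libraries. Thy1 was the highest of them, at 399 to 1794 in the fed and 607 to 2719 in the fasted libraries. The other marker lists summed to less on the same scale, with the fed range first: 44.1 to 107 against 8.33 to 63.2 for islet endocrine cells, 115 to 216 against 21.6 to 190 for ductal, stromal and endothelial cells, 0.990 to 15.6 against 2.78 to 129 for myeloid cells, 0.854 to 3.48 against 4.46 to 7.35 for B cells and 21.7 to 55.6 against 45.3 to 170 for T cells. In RNA from many cells, fewer cells of a type and less RNA per cell cannot be told apart, and the part of acinar RNA in the differences below was not tested beyond the values given beside them.

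No synthetase gene passed the test for a difference between fasted and fed mice. Of the 37 genes, 32 had enough counts to be tested, all 20 cytosolic and 12 of the 17 mitochondrial ones. With edgeR's quasi-likelihood test and Benjamini-Hochberg adjustment over 7700 genes, 0 of the 32 were called at an adjusted p under 0.05, against 0% of all genes, and the smallest adjusted p among them was 1.00. DESeq2 called 8 of the 7700 genes (0.104%) and limma-voom 0 (0%), and none of these calls was a synthetase. At an unadjusted p under 0.05, edgeR gave 4 of the 32, against 4.39% of all genes. Of these 4, Aars, Lars2 and Cars2 had lower values in fasted mice (1.62% of all genes) and Qars higher values (2.77%). At the same unadjusted limit DESeq2 gave 4 synthetases, against 4.57% of all genes, and limma-voom 6, against 9.47%. With the library number as a block, edgeR gave 5 of the 32 (6.95% of all genes), namely Lars2, Vars, Aars, Qars and Ears2, so that Cars2 left the set and Vars and Ears2 joined it. The values of the fed libraries lay wholly above those of the fasted libraries for Aars and Cars2 (2 of 32, against 1.31% of all genes), and the reverse held for 0 of 32 (2.21% of all genes).

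The cytosolic genes had more negative than positive log2 fold changes, fasted minus fed: 15 of 20 were below 0, against 50.2% of all genes, with a median of -0.31 against -0.0017 over all genes. With library totals alone the median of all genes moved to 0.51 and the cytosolic median to 0.028, so the cytosolic genes lay 0.48 below all genes on that scale and 0.31 below them with TMM. The size of the median rested on single libraries: without fed library 4 it was -0.043 with 12 of 20 below 0, without fasted library 1 -0.15, without fasted library 3 -0.18 and without fasted library 4 -0.52. Without Gars and Kars the median of the other 18 was -0.34. Single values ran from -0.95 for Aars to 0.56 for Qars, with standard errors (SE) between 0.24 for Qars and 0.68 for Eprs. Without fasted libraries 1 and 3, the acinar-poor ones, 11 of 20 were below 0 and the median was -0.068, and with the acinar level as a covariate it was -0.079. The sign of a gene's fold change was the same in every alternative run for 9 of the 20, namely Aars, Qars, Tars, Cars, Vars, Rars, Farsa, Mars and Nars. Hars differed in sign with library totals alone (0.065), a scaling that moved all genes. Keeping the sign did not mean keeping the size, since without fed library 4 the value of Nars went from -0.55 to -0.019, and without fasted libraries 1 and 3 that of Mars from -0.39 to -0.062.

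**Figure D1:**
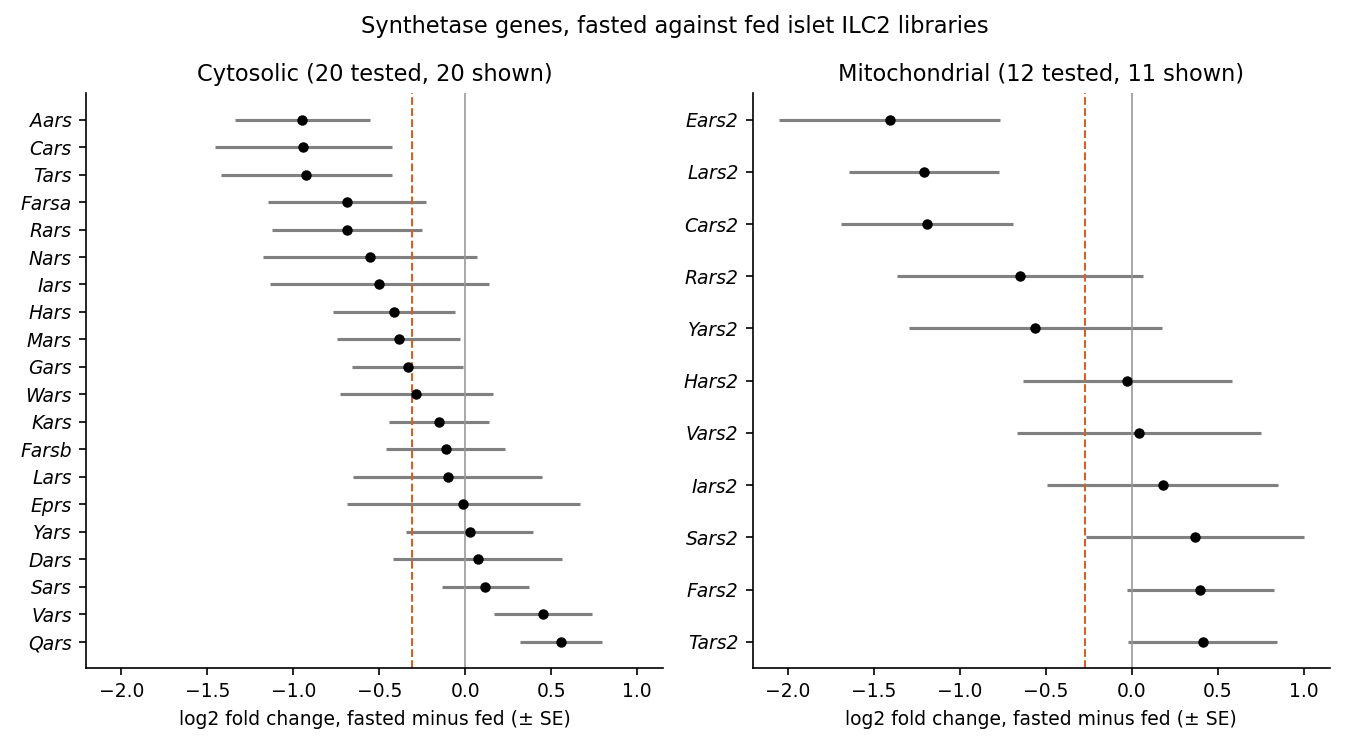
Log2 fold change, fasted minus fed, of the 20 tested cytosolic and 11 of the 12 tested mitochondrial synthetase genes (points, with bars of 1 SE, 4 libraries per group), cytosolic genes on the left and mitochondrial genes on the right; the dashed line is the median over all tested genes of the compartment. With TMM scaling 15 of 20 cytosolic and 6 of 11 mitochondrial points lie below 0. The medians over all tested genes are -0.31 and -0.27, while the middle mitochondrial point shown, Hars2, lies at -0.025. With library totals alone these medians are 0.028 and 0.32 beside 0.51 for all genes, so both medians lie below that of all genes on either scale.

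Aars, the gene of the alanine enzyme, had the smallest unadjusted p of the cytosolic genes (chromosome 8, 111033144 to 111057664, plus strand, GRCm38). Its level, in counts per 1000000 over TMM-scaled library sizes (CPM from here on, with libraries in the order 1, 3, 4 and 5), was 47.7, 46.4, 46.3 and 49.0 in the fed group and 7.25, 35.1, 26.2 and 29.4 in the fasted group. The fed libraries were close together and all above the fasted ones, among which library 1 was far below the others. The means were 47.3 ± 1.27 and 24.5 ± 12.1 (SD, n = 4 each), a log2 fold change of -0.95 ± 0.39 SE (edgeR, unadjusted p = 0.0337, adjusted p = 1.00). Without fasted library 1 it was -0.65, and with fasted library 3 left out as well -0.77. The last 500 bases of the Aars transcript are identical to part of Exosc6, an exosome subunit gene annotated on the same strand there, which the table lists with 104 counts in the fed and 76 in the fasted libraries against 1219 and 508 for Aars. How reads from this shared end were counted is not stated by the labels, so the Aars value is uncertain.

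Qars, the glutamine enzyme of the multi-synthetase complex, was the cytosolic gene with the smallest p on the higher side (chromosome 9, 108507706 to 108515941, plus strand). It stood at 35.2, 37.2, 38.3 and 43.8 CPM in the fed and 66.0, 50.7, 40.9 and 70.0 CPM in the fasted libraries. Each fasted library was above the fed library of the same number, but fasted library 4 lay below fed library 5, so the groups overlapped. The log2 fold change was 0.56 ± 0.24 (edgeR, unadjusted p = 0.0395, adjusted p = 1.00), and the means were 38.6 ± 3.69 and 56.9 ± 13.5 CPM (SD, n = 4 each). Over all genes, 9.38% were higher in the fasted library of all 4 number pairs, and among the synthetases Qars was the only such gene of the 32 tested. Fasted values were lower in all 4 pairs for Aars, Farsa, Cars2 and Ears2, 4 of 32 against 8.19% of all genes.

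Vars, which encodes the valine enzyme, held more counts than any other synthetase gene in this 3' end data, 10445 over the 8 libraries (chromosome 17, 35000987 to 35016322, plus strand). Its level was 281, 172, 140 and 277 CPM in the fed and 419, 281, 231 and 256 CPM in the fasted libraries. Fasted library 1 was the highest of the 8, and the other fasted libraries lay within the fed range or at its upper end. The log2 fold change was 0.45 ± 0.28 (edgeR, unadjusted p = 0.142, adjusted p = 1.00; with the library number as a block, unadjusted p = 0.041, adjusted p = 0.71). Without fasted library 1 it was 0.23, and without both acinar-poor libraries 0.16. Vars alone made up 37.7%, 23.7%, 17.7% and 38.0% of all synthetase counts in the fed libraries and 51.0%, 40.7%, 29.5% and 34.8% in the fasted ones. Any sum over the cytosolic genes therefore follows Vars more than the median does.

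The other 5 cytosolic genes with the smallest p all had lower mean values in fasted mice. Tars, the threonine enzyme, stood at 25.9, 21.0, 36.7 and 6.85 CPM in the fed and 8.42, 7.22, 21.4 and 10.8 CPM in the fasted libraries (log2 fold change -0.92 ± 0.50). Fed library 5 was the lowest of all 8, and the other 3 fed libraries were above their fasted partners; leaving out fasted libraries 1 and 3 gave -0.48. Cars, the cysteine enzyme, stood at 2.23, 6.36, 6.95 and 5.48 CPM against 3.98, 1.76, 2.95 and 2.46 CPM (-0.94 ± 0.52). Apart from fed library 1, the fed values of Cars were above every fasted value. Rars, the arginine enzyme of the complex, gave 4.91, 13.8, 14.5 and 7.88 CPM in the fed and 5.15, 6.64, 9.22 and 4.93 CPM in the fasted libraries (-0.69 ± 0.44), with fed libraries 3 and 4 above all fasted ones. Farsa, the catalytic subunit of the phenylalanine enzyme, gave 6.69, 7.17, 3.70 and 9.59 CPM against 5.15, 2.73, 3.69 and 5.12 CPM (-0.69 ± 0.46). Fed library 4 kept the Farsa groups from separating. Farsb, which encodes the partner subunit, had a log2 fold change of -0.11 ± 0.35. Hars, the histidine enzyme, gave 13.4, 10.7, 14.9 and 16.8 CPM against 6.08, 12.1, 14.7 and 8.72 CPM (-0.42 ± 0.35), with fasted libraries 3 and 4 inside the fed range.

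**Figure D2:**
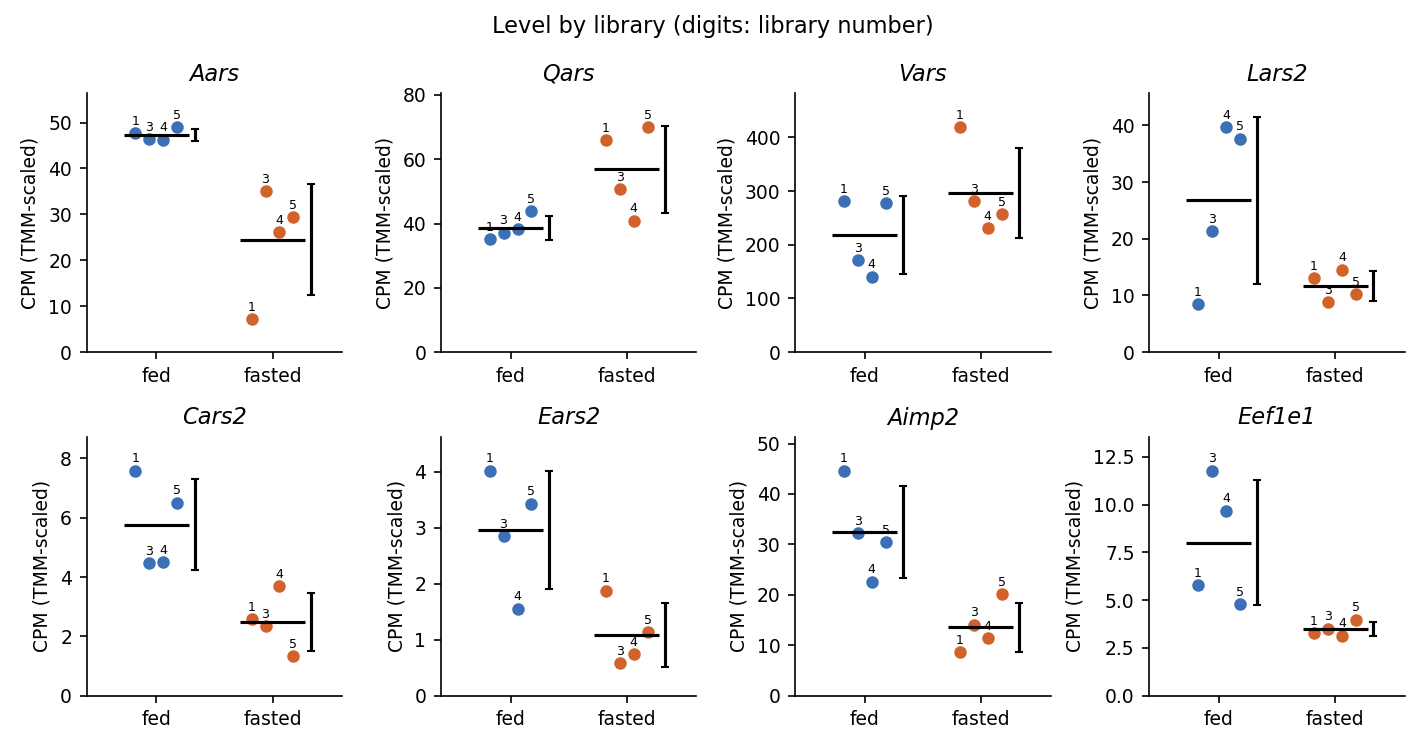
Level in each library (points labelled with the library number), with the group mean (horizontal line) and SD (bar, n = 4), for 6 synthetase genes and for the scaffold genes Aimp2 and Eef1e1, in CPM over TMM-scaled library sizes. Fed points lie wholly above fasted points for Aars, Cars2, Aimp2 and Eef1e1, and the groups overlap for Qars, Vars, Lars2 and Ears2.

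Gars and Kars, whose products charge glycine and lysine in both compartments, had their lowest values in the acinar-poor libraries. Gars stood at 30.3, 29.5, 47.4 and 29.8 CPM in the fed and 16.8, 19.7, 36.5 and 35.8 CPM in the fasted libraries, a log2 fold change of -0.34 ± 0.32. Kars stood at 47.7, 40.3, 40.9 and 52.7 CPM in the fed and 25.3, 32.0, 45.5 and 60.3 CPM in the fasted libraries, a log2 fold change of -0.15 ± 0.29. For each, fasted libraries 1 and 3 were the lowest of the 8, while fasted libraries 4 and 5 lay within or above the fed range. Without fasted libraries 1 and 3 the log2 fold change was 0.079 for Gars and 0.22 for Kars. The remaining cytosolic genes were Mars (-0.39), Nars (-0.55), Iars (-0.50), Wars (-0.29), Sars (0.12), Lars (-0.10), Dars (0.073), Yars (0.027) and Eprs (-0.011), the fused enzyme for glutamate and proline, and their fed and fasted libraries overlapped. Over the last 500 transcript bases Farsb shares 250 with Sgpp2 on the opposite strand, Cars shares 175 with the pseudogene Gm15580, and Iars aligns over 495 with the pseudogene Gm4849 at 96.6% identity, so the values of these 3 genes are uncertain.

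Within the cytosolic set, the 8 enzymes of the multi-synthetase complex had a median log2 fold change of -0.13 with 6 below 0, and the 12 free enzymes -0.38 with 9 below 0. By the fold of the catalytic domain, the 9 class I enzymes had a median of -0.29 with 6 below 0. The 10 class II enzymes, among them Aars, Tars and Hars, had a median of -0.38 with 8 below 0. The spread within each subgroup was wider than the distance between these medians, and the differences between subgroups were not tested.

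Summed over the 20 cytosolic genes, the counts per 1000000 of the library total went with the acinar share more than with the feeding state. For the fed group they were 829, 816, 379 and 439, and for the fasted group 1532, 1263, 489 and 382. The acinar-poor fasted libraries were the highest, and the 4 libraries above 66% acinar counts were the lowest, whatever their group. In counts per 1000000 of the counts outside the acinar markers, the sums were 1451, 1603, 1468 and 1306 in the fed and 1580, 1307, 1600 and 1325 in the fasted libraries. On that scale the groups overlapped throughout, with means of 1457 ± 122 and 1453 ± 159 (SD, n = 4 each). Without Vars, the other 19 cytosolic genes summed on the same scale to 981 ± 231 (fed) and 825 ± 179 (fasted).

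**Figure D3:**
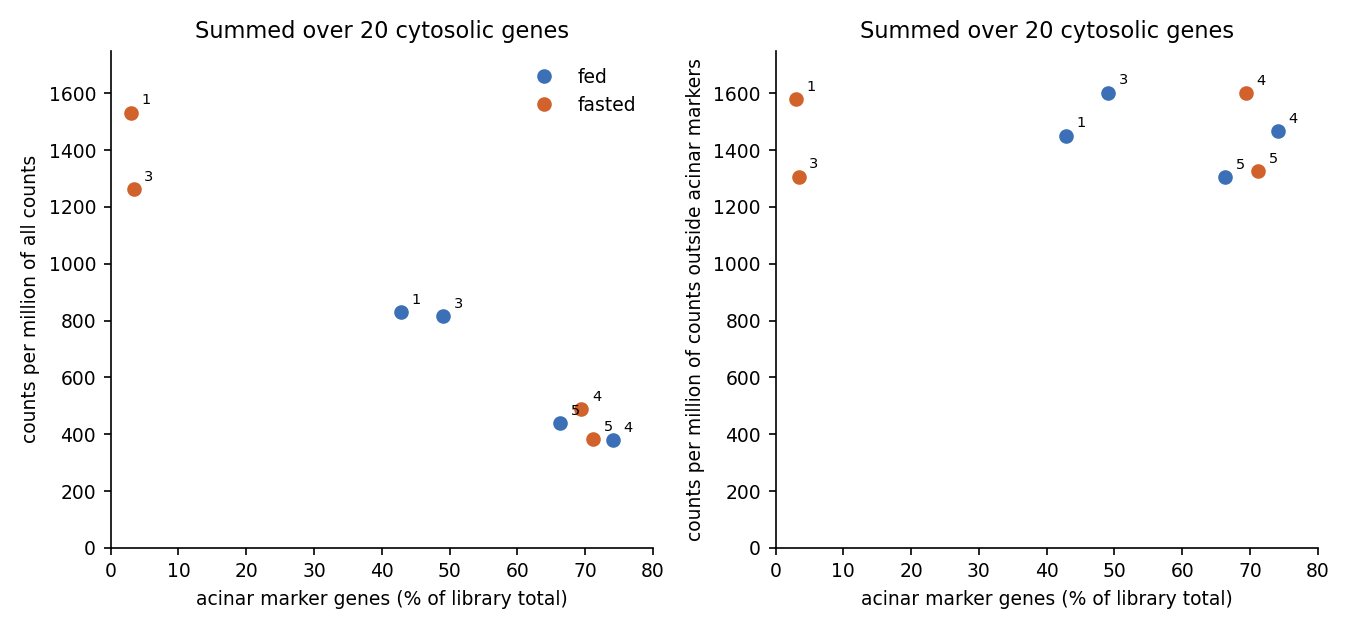
Summed level of the 20 cytosolic synthetase genes in each library (points, labelled with the library number) against the share of counts in acinar markers, per 1000000 counts of the library total on the left and per 1000000 of the counts outside the acinar markers on the right. The sums run from 379 to 1532 on the left and from 1306 to 1603 on the right, where fed and fasted libraries overlap.

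Of the mitochondrial genes, 7 of the 12 tested had negative log2 fold changes (50.2% of all genes), with a median of -0.27. The middle value of the 11 genes given one by one was that of Hars2 (-0.025). The median of the 12 thus depended on a tested gene that is not reported here by itself. With library totals alone the median of the 12 was 0.32 where that of all genes was 0.51, so it was again below all genes. The direction turned with the libraries and genes included: the median was 0.18 without fasted library 5 (13 genes tested), 0.033 without fed library 1 (16 genes) and 0.012 with no filter on low counts (17 genes), and it was -0.015 without fed library 5 (16 genes). Single values ran from -1.41 for Ears2 to 0.41 for Tars2, with SEs between 0.43 and 0.74. These genes were measured on fewer counts, with a median of 181.5 over all 8 libraries for the tested mitochondrial and 986.5 for the cytosolic genes. Without fasted libraries 1 and 3 the median was -0.15. The sign of a gene's fold change was the same in every alternative run that tested it for 7 of 11 mitochondrial genes. These were Lars2, Cars2, Ears2, Tars2, Fars2, Rars2 and Yars2. For neither compartment was the share of all genes that kept their sign computed.

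Lars2, the mitochondrial leucine enzyme, had the smallest p of all synthetase genes (chromosome 9, 123366927 to 123462666, plus strand). It stood at 8.48, 21.4, 39.7 and 37.7 CPM in the fed and 13.1, 8.78, 14.6 and 10.2 CPM in the fasted libraries. Fed libraries 3, 4 and 5 were above every fasted library and fed library 1 was the lowest of the 8. The means were 26.8 ± 14.7 and 11.7 ± 2.63 (SD, n = 4 each), a log2 fold change of -1.21 ± 0.43 (edgeR, unadjusted p = 0.0177, adjusted p = 1.00). Cars2, the mitochondrial cysteine enzyme, stood at 7.58, 4.47, 4.51 and 6.51 CPM in the fed and 2.57, 2.34, 3.69 and 1.33 CPM in the fasted libraries (chromosome 8, 11513977 to 11550783, minus strand). All fed values were above all fasted ones, and the log2 fold change was -1.19 ± 0.50 (edgeR, unadjusted p = 0.0361, adjusted p = 1.00). Of the last 500 bases of the Cars2 transcript, 217 match Naxd, listed as Carkd, on the opposite strand, and the labels do not state whether the counting used strand.

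Ears2, the mitochondrial glutamate enzyme, stood at 4.01, 2.84, 1.55 and 3.43 CPM in the fed and 1.87, 0.585, 0.737 and 1.14 CPM in the fasted libraries (chromosome 7, 122037213 to 122067263, minus strand). Each fed library was above its fasted partner, although fasted library 1 exceeded fed library 4. Its log2 fold change of -1.41 ± 0.64 rested on 82 counts in all (edgeR, unadjusted p = 0.0508, adjusted p = 1.00). Tars2, the threonine enzyme, had 9.37, 5.95, 6.50 and 2.74 CPM in the fed and 8.19, 7.42, 10.7 and 6.26 CPM in the fasted libraries (0.41 ± 0.44). Fed library 5 was the lowest and fasted library 4 the highest. Fars2, the phenylalanine enzyme, had 4.01, 3.92, 6.21 and 4.11 CPM against 7.72, 3.90, 5.35 and 7.39 CPM (0.40 ± 0.43), with fasted libraries 1 and 5 above all fed ones. Other tested mitochondrial genes were Rars2 (-0.65), Yars2 (-0.56), Sars2 (0.37), Iars2 (0.18), Vars2 (0.040) and Hars2 (-0.025), each with an SE of at least 0.61 and overlapping groups. The last 500 bases of Iars2 match Rab3gap2 on the opposite strand, so the value of Iars2 is uncertain.

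Aars2, Mars2, Nars2, Wars2 and Pars2 had too few counts to be tested, between 39 and 109 in all. For Pars2, the mitochondrial proline enzyme, the table held 9 counts in the fed and 30 in the fasted libraries. Its level was 0.446, 0.541, 0.296 and 0 CPM in the fed and 2.81, 1.17, 1.47 and 0.758 CPM in the fasted libraries, so the fasted values lay above the fed ones without overlap. Pars2 was singled out after its values had been seen. Nars2, the asparagine enzyme, was at or below 1.49 CPM in 7 libraries and at 10.5 CPM in fasted library 4.

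For 10 amino acids the enzymes of both compartments were compared, which gave 11 pairs of genes because Farsa and Farsb share Fars2. Glutamate was not among them, since Eprs also serves proline. Eprs had a log2 fold change of -0.011 and Ears2 of -1.41, so there the cytosolic gene had the higher value. Among the 11 pairs the cytosolic gene had the lower log2 fold change in 7 and the higher in 4, with a median difference of -0.25. For threonine the values were -0.92 for Tars and 0.41 for Tars2, and for phenylalanine -0.69 for Farsa and 0.40 for Fars2. For leucine the order was the opposite, with -0.10 for Lars and -1.21 for Lars2. For cysteine both genes had low values, -0.94 for Cars and -1.19 for Cars2. The median over all tested cytosolic genes minus that over all tested mitochondrial genes was -0.039. Both medians include genes that are in no pair, so this value and the pair differences cover unlike sets. It ranged from -0.61 without fasted library 5 to 0.33 without fasted library 1. The share of synthetase counts that fell on the mitochondrial genes was 11.5 ± 1.44% in the fed group and 9.47 ± 1.26% in the fasted group (SD, n = 4 each). In counts per 1000000 of the counts outside the acinar markers they summed to 175, 194, 179 and 207 in the fed and 192, 133, 177 and 113 in the fasted libraries. Fasted libraries 3 and 5 were below every fed library and fasted libraries 1 and 4 were within the fed range. None of these differences between compartments was tested.

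**Figure D4:**
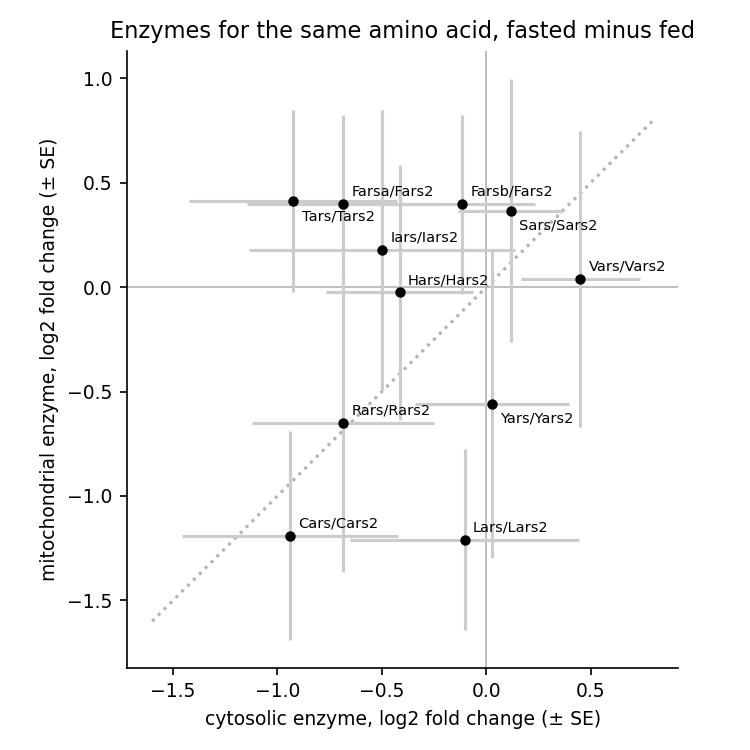
Log2 fold change, fasted minus fed, of the cytosolic (horizontal axis) and the mitochondrial gene (vertical axis) for the same amino acid, with bars of 1 SE and a dotted line of equal change. Of 11 pairs, 7 lie above the line, where the cytosolic value is the lower of the pair, and 4 below it. Eprs and Ears2 are not plotted as a pair.

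Of the 3 scaffold genes of the multi-synthetase complex, Aimp2 and Eef1e1 had larger log2 fold changes in size than any of its 8 enzymes. Aimp2 stood at 44.6, 32.2, 22.6 and 30.5 CPM in the fed and 8.66, 14.1, 11.4 and 20.1 CPM in the fasted libraries. All fed values were above all fasted ones, with a log2 fold change of -1.25 ± 0.33 (edgeR, unadjusted p = 0.00313, adjusted p = 0.69). Eef1e1, the smallest scaffold, stood at 5.80, 11.8, 9.68 and 4.80 CPM in the fed and 3.28, 3.51, 3.13 and 3.98 CPM in the fasted libraries, again without overlap, with a log2 fold change of -1.22 ± 0.43 (edgeR, unadjusted p = 0.0167, adjusted p = 1.00). Aimp1 stood at 12.9, 13.3, 9.31 and 7.88 CPM against 9.59, 18.5, 10.7 and 11.4 CPM, with a log2 fold change of 0.21 ± 0.35, and its groups overlapped. Thus 0 of the 3 scaffold genes passed the test in either direction, against 0% of all genes. Fed libraries lay wholly above fasted ones for 2 of the 3, against 1.31% of all genes.

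Of 13 other listed genes of transfer RNA charging and editing, 12 were in the count table. Of these, 4 had enough counts to be tested and 0 passed, against 0% of all genes. Gatc, a subunit of the mitochondrial enzyme that turns glutamate into glutamine on its transfer RNA, was named after its values had been seen. It stood at 8.92, 11.1, 13.6 and 16.1 CPM in the fed and 8.66, 3.90, 7.56 and 4.93 CPM in the fasted libraries. The fed values were above the fasted ones (1.31% of all genes), with a log2 fold change of -0.99 ± 0.39. The others were Aarsd1, an alanine editing factor (0.44), and the deacylases Dtd1 (0.29) and Dtd2 (-0.25).

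Among 31 other genes of the ATF4 and amino acid response, 24 were tested, 18 had negative log2 fold changes (50.2% of all genes) and the median was -0.44. With edgeR and Benjamini-Hochberg adjustment, 0 of the 24 passed in either direction, against 0% of all genes. On the lower side the smallest p belonged to Psat1 (-1.10 ± 0.27) and Phgdh (-0.95 ± 0.48), enzymes of serine synthesis, to Chac1 (-3.95 ± 0.93), which degrades glutathione, and to the arginine transporter Slc7a1 (-0.53 ± 0.35). DESeq2 called Chac1, with an adjusted p of 0.0011, where edgeR gave an adjusted p of 0.61. On the higher side were Ppp1r15a (0.66 ± 0.25), a phosphatase subunit that reverses the stress signal, the transcription factors Cebpb (0.92 ± 0.37) and Ddit3 (1.01 ± 0.69), and the transporter subunit Slc3a2 (0.10 ± 0.19). Atf4 itself had a log2 fold change of -0.40 ± 0.28, and of the 4 kinases that act upstream of it Eif2ak1 (-0.47) and Eif2ak3 (-0.96) were tested. Asns stood at 20.1, 26.3, 116 and 63.0 CPM in the fed and 0.234, 1.95, 50.9 and 62.7 CPM in the fasted libraries (-0.96 ± 1.27). Nupr1 stood at 92.3, 131, 476 and 209 CPM in the fed and 5.61, 14.6, 329 and 349 CPM in the fasted libraries (-0.38 ± 1.21). Cebpb had its highest values in the acinar-poor libraries, at 923, 537, 265 and 400 CPM in the fasted group. For Psat1 and Chac1, 2 of the 24, fed libraries lay wholly above fasted ones, against 1.31% of all genes. The part of the acinar-poor libraries in the median of this list was not tested.

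Promoter sequence was examined because ATF4 binds a known element whose core letters can be searched for. RefSeq windows of 300 bases, 250 before and 50 from the transcription start onward, were at hand for 27 of the 37 synthetase genes (13 cytosolic and 14 mitochondrial; build GRCm38.p6). The letters TGATGNAA, searched on both strands (TTNCATCA on the other), were found in 5 of 13 cytosolic (38.5%) and 0 of 14 mitochondrial windows. They were found in 8 of 28 windows of the ATF4 list (28.6%) and in 1219 of 27025 genes with a window (4.51%). The 5 windows are shown whole because they are the synthetase promoters that hold the letters, written 5' to 3' along the gene, with the match in capitals.
Aars, chr8:111033592-111033891, plus strand: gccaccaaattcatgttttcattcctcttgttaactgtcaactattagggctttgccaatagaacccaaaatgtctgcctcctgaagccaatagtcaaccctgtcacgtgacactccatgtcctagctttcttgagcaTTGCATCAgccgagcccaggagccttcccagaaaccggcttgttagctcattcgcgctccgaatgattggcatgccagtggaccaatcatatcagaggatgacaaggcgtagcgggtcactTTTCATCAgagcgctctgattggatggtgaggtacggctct
Tars, chr15:11399609-11399908, minus strand: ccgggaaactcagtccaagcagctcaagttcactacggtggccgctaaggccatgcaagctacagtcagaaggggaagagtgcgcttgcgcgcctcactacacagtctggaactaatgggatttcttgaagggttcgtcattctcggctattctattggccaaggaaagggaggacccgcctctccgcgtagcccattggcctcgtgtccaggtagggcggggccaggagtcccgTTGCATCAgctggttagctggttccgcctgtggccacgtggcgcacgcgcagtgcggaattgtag
Gars, chr6:55037751-55038050, plus strand: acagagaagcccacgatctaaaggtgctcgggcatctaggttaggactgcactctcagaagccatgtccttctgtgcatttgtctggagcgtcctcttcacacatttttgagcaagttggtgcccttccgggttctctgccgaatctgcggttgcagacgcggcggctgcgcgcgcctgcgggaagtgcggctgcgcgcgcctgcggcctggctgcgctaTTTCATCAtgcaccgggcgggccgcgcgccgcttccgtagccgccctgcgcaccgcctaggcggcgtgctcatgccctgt
Iars, chr13:49681880-49682179, plus strand: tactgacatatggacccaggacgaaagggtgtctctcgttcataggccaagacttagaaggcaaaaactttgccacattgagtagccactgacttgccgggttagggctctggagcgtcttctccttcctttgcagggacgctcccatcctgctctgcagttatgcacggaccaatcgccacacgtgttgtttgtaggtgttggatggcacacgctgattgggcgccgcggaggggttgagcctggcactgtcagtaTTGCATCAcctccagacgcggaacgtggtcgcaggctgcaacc
Yars, chr4:129189653-129189952, plus strand: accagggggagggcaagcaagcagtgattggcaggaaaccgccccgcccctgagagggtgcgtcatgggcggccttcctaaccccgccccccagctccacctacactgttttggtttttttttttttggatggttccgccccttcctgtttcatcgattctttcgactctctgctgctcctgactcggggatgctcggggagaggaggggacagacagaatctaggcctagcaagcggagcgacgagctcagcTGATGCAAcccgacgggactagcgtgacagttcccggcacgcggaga
Aars held 2 matches, starting at positions -112 and 9 relative to the transcription start, counted as 0. The others held 1 each, at -15 in Tars, -30 in Gars, 7 in Iars and 3 in Yars. The median log2 fold change of these 5 genes was -0.50, with Yars the only one of them above 0, and that of the 8 cytosolic genes with a window and no match was -0.062, with 5 below 0. The first of these medians is the value of Iars, whose 3' end matches a pseudogene. Without fed library 4 the medians were -0.14 and 0.082, and without fasted libraries 1 and 3 they were -0.15 and 0.079. The cytosolic genes without a window are in neither median. They were Cars (-0.94), Rars (-0.69), Nars (-0.55), Hars (-0.42), Wars (-0.29), Lars (-0.10) and Vars (0.45). Among the genes with a match Iars is in the multi-synthetase complex, and among those without a match Qars, Mars, Kars, Dars and Eprs are. The difference between the medians was not tested, and a match of letters does not show that a factor binds there.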

How the data were processed

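RNA of islet ILC2 from fed and fasted mice was extracted with Trizol and sequenced by CEL-seq2, per the labels' protocols. The authors deposited whole-number counts per gene; neither the labels nor the table state whether these are reads or molecular identifiers, or whether strand was used. STAR, edgeR and the build mm10 are named in the submitters' processing notes, without versions. The 4 sequencing files each hold both treatments, so treatment was read from the column names, with control taken as fed. As many columns as files were used per treatment, and 2 further columns were not used here.

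The 11 ERCC spike-in entries (20 counts) were left out. In edgeR 4.0.16 (R 4.3.3), 7700 genes passed filterByExpr, TMM factors scaled the libraries, and fasted libraries were set against fed ones by the robust quasi-likelihood test, two-sided, with Benjamini-Hochberg adjustment over all tested genes. The SE given with a log2 fold change is the size of that change divided by the square root of its quasi-likelihood F statistic. Totals ran from 1797504 to 25252366 counts, and the common biological coefficient of variation was 0.506, which limits precision at 4 libraries per group. Alternatives were DESeq2 1.42.0, limma-voom with quality weights (limma 3.58.1), other scaling and filters, a replicate block, each library left out, an acinar covariate, leaving out fasted libraries 1 and 3, and removing acinar markers. The same fit was also run on simulated counts with known fold changes. These were drawn gene by gene without acinar differences between libraries, and the outcome is not given here.

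Values per library are given for the 8 cytosolic and 5 mitochondrial genes with the smallest p, Gars, Kars, the 3 scaffold genes, and fold changes for 4 ATF4-list genes in each direction. A mitochondrial gene that was tested is not reported here by itself and is left out of the pairs by amino acid, but stays in the counts and medians. The synthetase genes and all lists were chosen with earlier results of these data known. Deviations from the group means correlated at 0.25, 0.16, 0.53 and 0.14 between libraries of the same number, all above 0.1, so by that limit the numbers in the column names were taken to pair the libraries. The main fit still treated the libraries as unpaired. Pairing entered only in the replicate block and in the comparisons of libraries with the same number. Unlike numbers correlated at 0.22 (fed 1 with fasted 3) and 0.24 (fed 4 with fasted 5), above the same-number values of libraries 3 and 5, so the pairing is not clear-cut. Coordinates are from GENCODE vM21, and 3' ends were compared with BLAST 2.17.0 (at least 95% identity over 100 bases).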

Additional observations from a re-analysis of the deposited data

Results flagged for a closer look

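In 5 of 64 groups of 4 libraries (7.81%), 1 library lay further from the other 3 than Dixon's 95% limit allows, where chance gives about 1 in 20 groups. Gars stood at 47.4 CPM in fed library 4 and between 29.5 and 30.3 CPM in the other fed libraries. Fars2 was likewise high in fed library 4, at 6.21 CPM against 3.92 to 4.11 CPM. Nars stood at 37.6 CPM in fasted library 4 and between 11.5 and 15.4 CPM in the other fasted libraries. Iars2 stood at 5.35 CPM in fed library 1 and between 1.37 and 1.77 CPM in the other fed libraries. Vars2 was low in fasted library 5, at 1.33 CPM against 2.34 to 2.54 CPM.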

How the results depend on the processing

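No synthetase gene was called under any alternative run. What these libraries could resolve was limited by the SE of the log2 fold changes. Its median was 0.41 for the cytosolic genes (0.24 to 0.68) and 0.64 for the mitochondrial genes (0.43 to 0.74). Over all genes DESeq2 called 8, library totals alone 1 (Chac1) and no filter on low counts 1, and of the scaffold, charging and ATF4 genes DESeq2 and library totals alone each called 1 (Chac1). Library totals alone moved the median of all genes to 0.51, the cytosolic median to 0.028, the mitochondrial median to 0.32, and the log2 fold changes to 0.065 for Hars, 0.12 for Kars, 0.32 for Farsb, 0.33 for Lars, 0.23 for Eprs and 0.34 for Hars2. The mitochondrial median was 0.012 with no filter on low counts, -0.031 with a stricter filter and -0.033 with acinar markers removed. With fasted libraries 1 and 3 left out, values became 0.079 for Gars, 0.30 for Wars, 0.22 for Kars, -0.10 for Sars, 0.086 for Lars, 0.53 for Eprs, -0.24 for Sars2, -0.20 for Vars2 and 0.022 for Hars2. With the acinar covariate they became 0.032 for Gars, 0.23 for Wars, 0.16 for Kars, -0.052 for Sars, 0.030 for Lars, 0.46 for Eprs, -0.16 for Sars2 and -0.11 for Vars2, and 0 synthetase genes had an unadjusted p under 0.05. DESeq2 gave 0.012 for Eprs, and limma-voom -0.11 for Dars and 0.21 for Hars2. The replicate block that pairs equal library numbers gave 0.30 for Eprs, a cytosolic median of -0.30 and a mitochondrial median of -0.21, changed no call, exchanged Cars2 for Vars and Ears2 among the synthetase genes with an unadjusted p under 0.05, and moved the genes with an unadjusted p under 0.05 from 338 to 535. Relative to the median of all genes, the cytosolic median was lower in 18 of 18 alternatives and the mitochondrial median in 14 of 18. These alternatives reuse the same 8 libraries, so they are not independent. The cytosolic distance from all genes was -0.31 in the main run and -0.49 without fasted library 4. It was -0.065 without fasted libraries 1 and 3, -0.068 with the acinar covariate and -0.067 without fed library 4. With each library left out in turn, the cytosolic median ran from -0.52 (without fasted 4) to -0.043 (without fed 4), the mitochondrial median ran from -0.48 (without fasted 1) to 0.18 (without fasted 5) and the cytosolic minus mitochondrial median from -0.61 to 0.33. The same ranges crossed 0 for Iars (-0.83 to 0.056), Kars (-0.41 to 0.013), Farsb (-0.33 to 0.10), Lars (-0.51 to 0.18), Dars (-0.18 to 0.51), Yars (-0.25 to 0.18), Eprs (-0.51 to 0.48), Sars2 (-0.031 to 0.71), Iars2 (-0.16 to 0.74), Vars2 (-0.34 to 0.87), Hars2 (-0.32 to 0.47) and Aimp1 (-0.042 to 0.32). The cause of these changes was not tested.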

Other observations

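In both acinar-poor fasted libraries, 1 and 3, the level of Vars (419 and 281.2 CPM) was above that in each of the other 6 libraries, although fasted library 3 and fed library 1 (281.0 CPM) were all but equal. This held for 1 of 20 cytosolic genes (5%) and for 6.86% of all genes tested. Gars, Kars and Wars, the tryptophan enzyme, were below the other 6 libraries in both, 3 of 20 cytosolic genes (15%) against 7.92% of all genes tested. Wars stood at 14.3 and 8.0 CPM in fasted libraries 1 and 3, at 34.3 and 31.5 CPM in fasted libraries 4 and 5, and between 19.6 and 40.0 CPM in the fed libraries. No mitochondrial gene of the 12 tested stood apart in this way in either direction.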
